A study of Mus musculus with 6 samples.

Results

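The 10 genes described are the AP-1 transcription factor genes Fos, Fosb, Fosl1, Fosl2, Jun, Junb, Jund and Atf3, and the immediate early genes Egr1 and Ier2. They were chosen by symbol, as 10 rows among the 23224 genes of a table of estimated read counts, and all 10 were abundant enough to test. The table held 6 libraries of mouse AKP organoids grown from tumours that had formed in vivo, 3 from organoids with the genotype SOX17KO, made by CRISPR-Cas9, and 3 from organoids labelled Control. Both groups share the AKP background, which the labels do not spell out, and the labels name no guide, clone, culture or passage. Deleting the transcription factor SOX17 was meant to show what it does in colon cancer.

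AP-1 is a dimer of leucine zipper proteins, usually 1 from the Jun family and 1 from the Fos family, that binds the sequence TGACTCA. Fos and Jun are the classical immediate early genes: growth factors, stress or handling of cells switch them on through MAP kinases, without new protein synthesis, and their RNA is short-lived. In mouse intestine, c-Jun, the product of Jun, works with the Wnt pathway factor TCF4 and promotes tumour growth. ATF3 is a stress-induced relative of both families, EGR1 is a zinc finger factor, and IER2 is a small nuclear protein induced with them.

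Promoter windows were available for 7 of the 10 genes, and 4 are printed because Jun went its own way while Fos, Junb and Atf3 moved together from library to library. Each runs from 250 bases before to 50 bases after the annotated start, as RefSeq gives it for GRCm38.p6, while the counts were made on the older mm9. They lie at chr4:95052173-95052472 (minus strand, Jun), chr12:85473640-85473939 (plus strand, Fos), chr8:84978699-84978998 (minus strand, Junb) and chr1:191183284-191183583 (minus strand, Atf3). Capitals mark matches, on either strand, to TGACTCA, TGACGTCA (the cAMP response element), TGACGT (a part of that element), TGACATCA and TTACCTCA (the proximal and distal sites of the Jun promoter) or the CArG box bound by serum response factor.
Jun: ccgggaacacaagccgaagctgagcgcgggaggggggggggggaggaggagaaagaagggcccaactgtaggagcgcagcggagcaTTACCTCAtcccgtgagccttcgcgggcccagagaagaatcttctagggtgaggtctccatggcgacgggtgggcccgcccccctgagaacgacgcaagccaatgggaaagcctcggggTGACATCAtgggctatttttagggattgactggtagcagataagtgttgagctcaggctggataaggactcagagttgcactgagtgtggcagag
Fos: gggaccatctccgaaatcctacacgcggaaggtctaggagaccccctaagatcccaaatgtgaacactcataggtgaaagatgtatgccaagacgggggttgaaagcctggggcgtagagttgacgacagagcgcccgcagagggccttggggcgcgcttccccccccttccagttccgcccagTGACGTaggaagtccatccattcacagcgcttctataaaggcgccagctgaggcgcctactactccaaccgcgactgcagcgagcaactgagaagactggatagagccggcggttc
Junb: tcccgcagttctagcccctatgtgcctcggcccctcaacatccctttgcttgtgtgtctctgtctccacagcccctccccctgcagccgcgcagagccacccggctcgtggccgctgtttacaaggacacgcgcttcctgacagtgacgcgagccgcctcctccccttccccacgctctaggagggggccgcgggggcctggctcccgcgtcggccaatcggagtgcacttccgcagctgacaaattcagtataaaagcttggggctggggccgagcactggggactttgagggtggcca
Atf3: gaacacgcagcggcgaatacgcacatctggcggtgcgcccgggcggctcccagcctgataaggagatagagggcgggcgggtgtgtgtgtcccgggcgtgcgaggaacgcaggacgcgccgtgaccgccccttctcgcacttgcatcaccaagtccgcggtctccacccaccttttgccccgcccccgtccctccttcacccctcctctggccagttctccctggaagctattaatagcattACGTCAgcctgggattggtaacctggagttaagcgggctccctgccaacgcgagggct
The Jun window held TGACATCA at position -45 and TTACCTCA at position -164 from the start, motifs found in 3.62% and 0.889% of 32851 windows of 300 bases. The Fos and Atf3 windows each held TGACGT, which 7.51% of windows held. The Junb window held none of the 6 motifs. No window printed held TGACTCA, TGACGTCA or a CArG box, which 5.2%, 1.79% and 1.63% of windows held. Motifs more than 250 bases before the start lie outside the windows, so a promoter may hold them all the same. A match is a run of letters and not a site known to be bound.

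Library totals ran from 18290912 to 24765258 counts in SOX17KO and from 21238718 to 27503254 in Control. SOX17KO replicate 1 stood apart, with correlations of log2 CPM (CPM, the count scaled to a common library size) of 0.960 and 0.963 with replicates 2 and 3, which correlated at 0.986 with each other. Replicates 2 and 3 correlated at 0.968 to 0.970 with the Control libraries, higher than with replicate 1. For replicate 1 the correlations with Control were 0.946 to 0.951, and Control libraries correlated at 0.994 to 0.995 with each other. Results that rest on SOX17KO replicate 1 are also given without it. For Sox17 itself the SOX17KO libraries had 33.8, 41.9 and 45.1 CPM, and Control had 34.4, 34.5 and 34.2 CPM. RNA was thus not lower in SOX17KO (edgeR adjusted p = 0.345), and the genotype could not be checked by level. All 8 epithelial markers, Epcam and Cdh1 among them, passed the filter, with a summed level of 9953 to 14168 CPM in SOX17KO and 13368 to 14149 CPM in Control. The 8 fibroblast markers summed to at most 0.42 CPM and the 6 endothelial markers to at most 0.878 CPM in any library, and Cd3e and Cd79a were at 0 among the 7 immune markers measured, which summed to 5.19 to 14 CPM in SOX17KO and 8.56 to 11 CPM in Control. Most of that was Cd68, at 4.66, 11.7 and 13.3 CPM in SOX17KO and 10.7, 8.52 and 7.99 CPM in Control.

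Jun was the 1 gene of the 10 called higher in SOX17KO by edgeR over all libraries. SOX17KO replicates 1, 2 and 3 had 59.2, 37.8 and 55.9 CPM, against 19.5, 18.9 and 18.1 CPM in Control. Every SOX17KO library lay above every Control library. The means were 51 ± 11.5 CPM in SOX17KO and 18.8 ± 0.717 CPM in Control (SD, n = 3 each). The log2 fold change was 1.43 ± 0.17 (SE), or 2.70-fold with a 95% interval of 2.04 to 3.58, at an adjusted p of 0.00511 in edgeR's quasi-likelihood test with Benjamini-Hochberg adjustment over 12137 genes. The call held under all 14 alternatives run, including each library left out in turn, with a log2 fold change of 1.31 to 1.61. The highest edgeR adjusted p, 0.0469, came without Control replicate 1. The 20 nearest tested genes around Jun on chromosome 4 had a median log2 fold change of 0.03, with 1 called higher and 0 lower. Over all tested genes the median was 0.01, with 3.67% called higher and 3.2% lower. The antisense RNA Junos overlaps Jun and was not analysed here; since the strand setting of the counting is not given in the sources used here, its reads cannot be told apart from those of Jun.

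**Figure D1:**
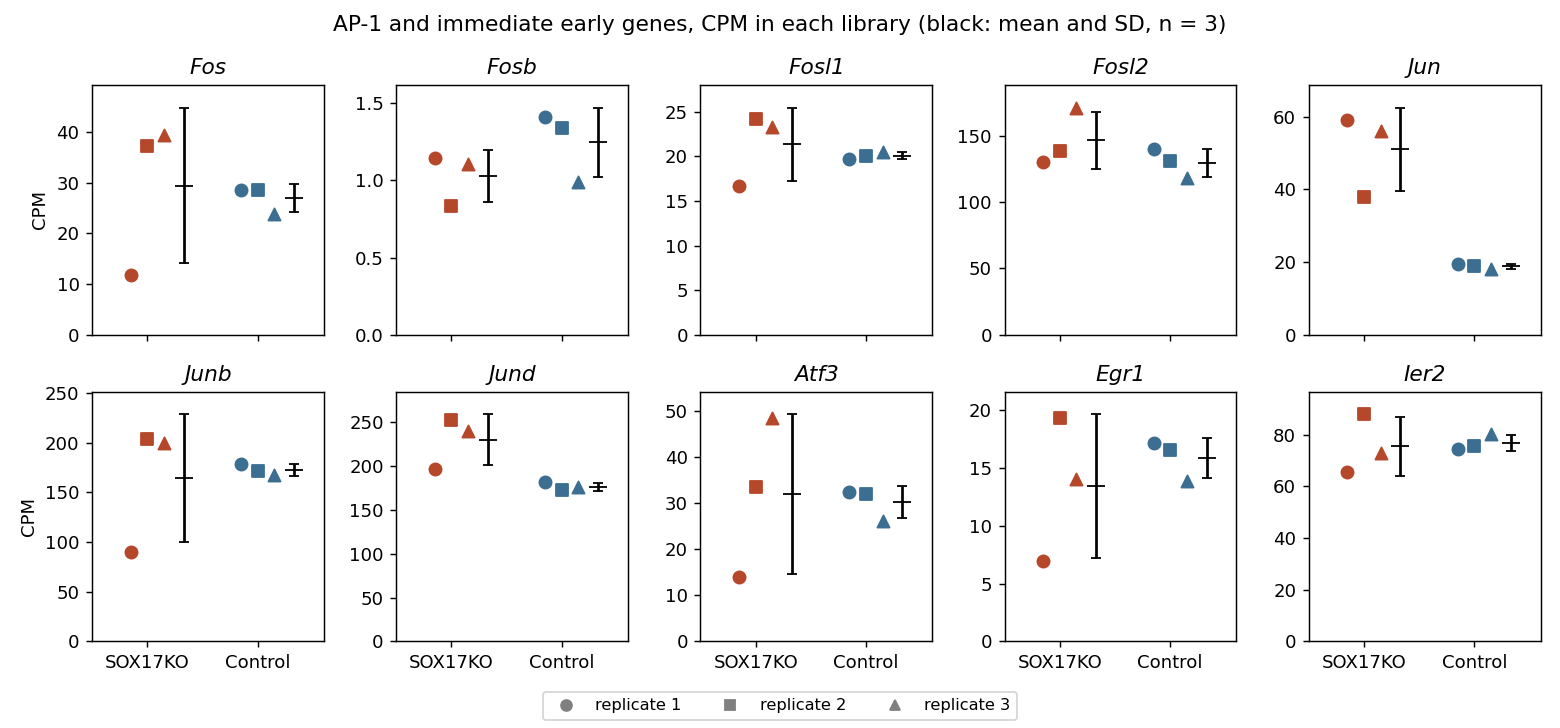
CPM (counts scaled to a common library size) of the 10 genes in each library, with 1 panel per gene; red symbols are SOX17KO and blue symbols Control, the symbol shape gives the replicate, and black bars give the mean and SD (n = 3). The 3 SOX17KO libraries sit between 37.8 and 59.2 CPM for Jun, all above Control, while for Fos, Junb, Atf3 and Egr1 SOX17KO replicate 1 sits below all Control libraries.

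With edgeR, 1 of the 10 genes passed, higher in SOX17KO, and 0 were lower, beside 6.87% of all tested genes called (3.67% higher, 3.2% lower). An unadjusted p below 0.05 was reached by Jun and Jund, 2 higher and 0 lower. Of all 12137 tested genes, 1281 were higher and 1182 lower at that p. DESeq2 called Jun and Jund higher, with 0 lower, beside a background of 10.7% (5.75% higher, 4.99% lower). These edgeR and DESeq2 backgrounds also apply to the lists below. In limma-voom Jun alone passed, with 0 lower, beside 6.25% (2.99% higher, 3.25% lower). Library totals in place of TMM factors gave Jun and Jund beside 6.48%. Jun alone was called with RLE factors (6.84% of all genes), no low-count filter (5.19%), a 1 CPM filter (7.14%), unrounded values (6.88%) and the replicate number as a block (2.69%). It alone was called without SOX17KO replicate 2 (6.16%) or 3 (5.49%) and without Control replicate 1 (1.6%), 2 (1.56%) or 3 (1.64%). Groups did not overlap for Jun and Jund, 2 of the 10 genes, against 28.2% of all tested genes, and both were higher in SOX17KO, against 14% of all. As shares these are near the background. The median log2 fold change of the 10 genes was 0.08, against 0.01 over all tested genes.

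Among the other Jun family genes, Jund missed the threshold and Junb split the SOX17KO libraries. Jund, a constitutively expressed member, was at 197.1, 252.8 and 240.4 CPM in SOX17KO and 181.7, 172.6 and 176.2 CPM in Control. All SOX17KO libraries were higher, by the least in replicate 1. Its log2 fold change of 0.38 ± 0.11 had an edgeR adjusted p of 0.0890. It was called with DESeq2 (adjusted p = 0.0247), with edgeR on library totals only (adjusted p = 0.0474) and without SOX17KO replicate 1 (edgeR adjusted p = 0.000679, log2 fold change 0.48). An antisense gene, Gm11175, overlaps Jund, with the same limit as for Jun, and the small RNA gene Gm24748 overlaps Atf3.

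Junb, which restrains c-Jun in several settings, was at 89.7, 203.4 and 199.2 CPM in SOX17KO and 178.5, 171.1 and 167.1 CPM in Control. Replicate 1 was at 0.521 times the Control mean, while replicates 2 and 3 lay above all Control libraries. The log2 fold change was -0.07 with a 95% interval of -0.74 to 0.60 (edgeR adjusted p = 0.937). Without SOX17KO replicate 1 it was 0.22 and was called (edgeR adjusted p = 0.0375). Prdx2, a peroxidase gene that overlaps Junb on the other strand, was at 165.1, 154.7 and 148.3 CPM in SOX17KO and 144.9, 147.8 and 155.5 CPM in Control, and did not share that pattern.

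The balance of the Jun family differed between the groups in every library. There were 0.660, 0.186 and 0.281 Jun reads for each Junb read in SOX17KO replicates 1, 2 and 3, against 0.109, 0.110 and 0.108 in Control. This ratio within a library does not depend on its depth; it shows unequal change and not which gene changed. Per kilobase of transcript (GENCODE M21), Jun made up 9.96%, 4.30% and 6.45% of the Jun family level in SOX17KO and 2.87%, 2.90% and 2.79% in Control. Jund was the largest share throughout, with 53% to 63.4% in SOX17KO and 50.7% to 51.9% in Control. These shares use genes chosen with their changes known and carry no test.

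**Figure D2:**
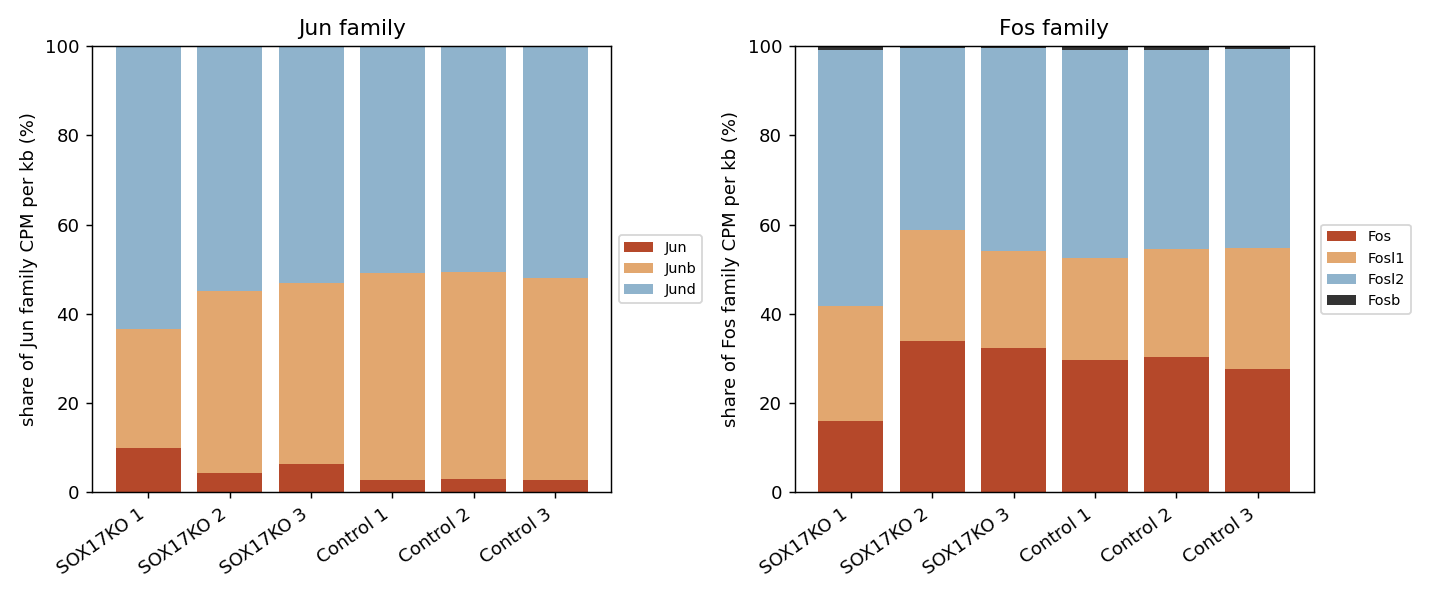
Share of each gene in the Jun family level (left) and the Fos family level (right), in percent of CPM per kilobase of transcript, with 1 bar per library and SOX17KO left of Control. Jun makes up 4.30% to 9.96% in SOX17KO and 2.79% to 2.90% in Control, and Fos makes up 16% in SOX17KO replicate 1 and 27.7% or more in the other libraries.

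No Fos family gene was called with edgeR, and Fos itself split the SOX17KO libraries most widely. It was at 11.7, 37.1 and 39.4 CPM in SOX17KO and 28.6, 28.6 and 23.7 CPM in Control. Replicate 1 lay below all Control libraries at 0.435 times their mean, and replicates 2 and 3 lay above them all at 1.38 and 1.46 times. The log2 fold change of 0.12 ± 0.41 had a 95% interval of -0.83 to 1.08 (edgeR adjusted p = 0.923). Without SOX17KO replicate 1 it was 0.50 and was called (edgeR adjusted p = 0.00557); without replicate 2 or replicate 3 it was -0.09 and -0.15. The tested neighbours of Fos on chromosome 12, 20 genes that include Jdp2, had a median log2 fold change of 0.14, with 3 called higher and 0 lower. Over all tested genes the median was 0.01, with 3.67% called higher and 3.2% lower.

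Fosl1, which encodes FRA1 and is sustained by ERK activity, was at 16.7, 24.2 and 23.3 CPM in SOX17KO and 19.7, 20 and 20.5 CPM in Control. It showed the same split at smaller size, at 0.09 on the log2 scale (edgeR adjusted p = 0.825, 95% interval from -0.27 up to 0.44), and 0.24 without SOX17KO replicate 1 (edgeR adjusted p = 0.0804). The coding gene Ccdc85b overlaps it on the other strand and was not called. Fosl2, which encodes FRA2, was at 130.4, 138.1 and 171.2 CPM in SOX17KO and 139.7, 130.6 and 118 CPM in Control, and the groups overlapped. It differed by 0.18 on the log2 scale (edgeR adjusted p = 0.507), inside an interval from -0.11 up to 0.47. Fosb was the lowest of the 10 genes, at 1.15, 0.834 and 1.11 CPM in SOX17KO and 1.41, 1.34 and 0.989 CPM in Control. Its 95% interval spans 0.531-fold to 1.29-fold (edgeR adjusted p = 0.673).

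The stress and growth factor responders Atf3 and Egr1 were lowest in the same library. Atf3 was at 14, 33.4 and 48.6 CPM in SOX17KO and 32.4, 32 and 26.2 CPM in Control. Its log2 fold change was 0.08 ± 0.39 (95% interval -0.84 to 1.00; edgeR adjusted p = 0.948), and it was 0.44 without SOX17KO replicate 1 (edgeR adjusted p = 0.0653) and -0.35 without SOX17KO replicate 3. Egr1 was at 6.95, 19.4 and 14 CPM in SOX17KO and 17.2, 16.6 and 13.9 CPM in Control, and the log2 fold change of -0.25 missed the threshold (edgeR adjusted p = 0.773, 95% interval from -1.03 up to 0.54). Only replicate 1 of SOX17KO lay outside the Control range downwards, at 0.437 times the Control mean, and without it the log2 fold change was 0.07. Ier2 did not pass the test: it was at 65.5, 87.9 and 72.9 CPM in SOX17KO and 74.4, 75.7 and 80.3 CPM in Control, and its log2 fold change of -0.03 had a 95% interval from -0.30 up to 0.25 (edgeR adjusted p = 0.943).

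**Figure D3:**
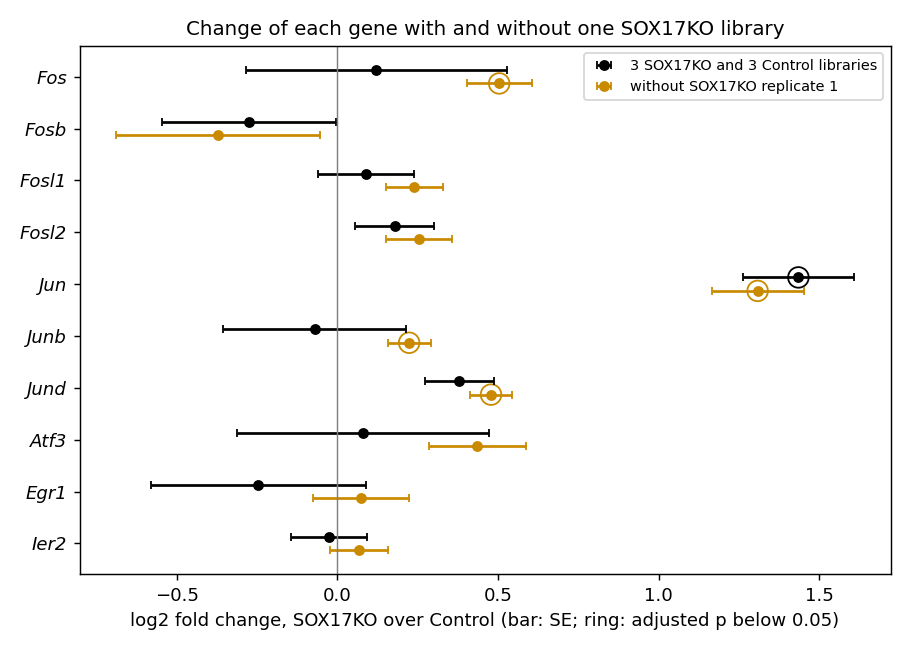
Log2 fold change of each gene, SOX17KO over Control, with its SE, in the fit of all 6 libraries (black) and without SOX17KO replicate 1 (yellow); rings mark an adjusted p below 0.05. Jun is ringed in both fits, at 1.43 and 1.31, and Fos, Junb and Jund are ringed without that library only.

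Without SOX17KO replicate 1, edgeR called Fos, Jun, Junb and Jund higher and 0 genes lower, 4 of the 10, where 22.2% of all genes tested in that fit were called, 11.9% higher and 10.3% lower. SOX17KO replicate 1 was below all Control libraries for 6 of the 10 genes, against 40.3% of all tested genes. That replicate lay below and replicates 2 and 3 above all Control libraries for Fos, Fosl1, Junb and Atf3. Of all tested genes 7.98% had this arrangement and 7.06% had its mirror image, which none of the 10 genes had. The arrangement was defined after the values were seen and carries no test. The same library had the lowest summed level of epithelial markers, which lay in its keratins: Krt8, Krt18 and Krt19 were at 2923, 1367 and 3467 CPM there. In SOX17KO replicate 2 the same keratins were at 4078, 2304 and 5417 CPM, and their Control means were 4009, 1980 and 5992 CPM. Of the other epithelial markers, Epcam, Cdh1, Cldn7 and Cdx2 were at 1.27, 1.12, 1.29 and 1.04 times their Control means in SOX17KO replicate 1, and Vil1 was at 0.970 times. Epcam and Cldn7 were called higher over all 3 SOX17KO libraries (edgeR adjusted p = 0.0343 and 0.0223). Their part in the split was not tested. In bulk RNA, fewer cells of a type and less RNA per cell cannot be told apart.

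**Figure D4:**
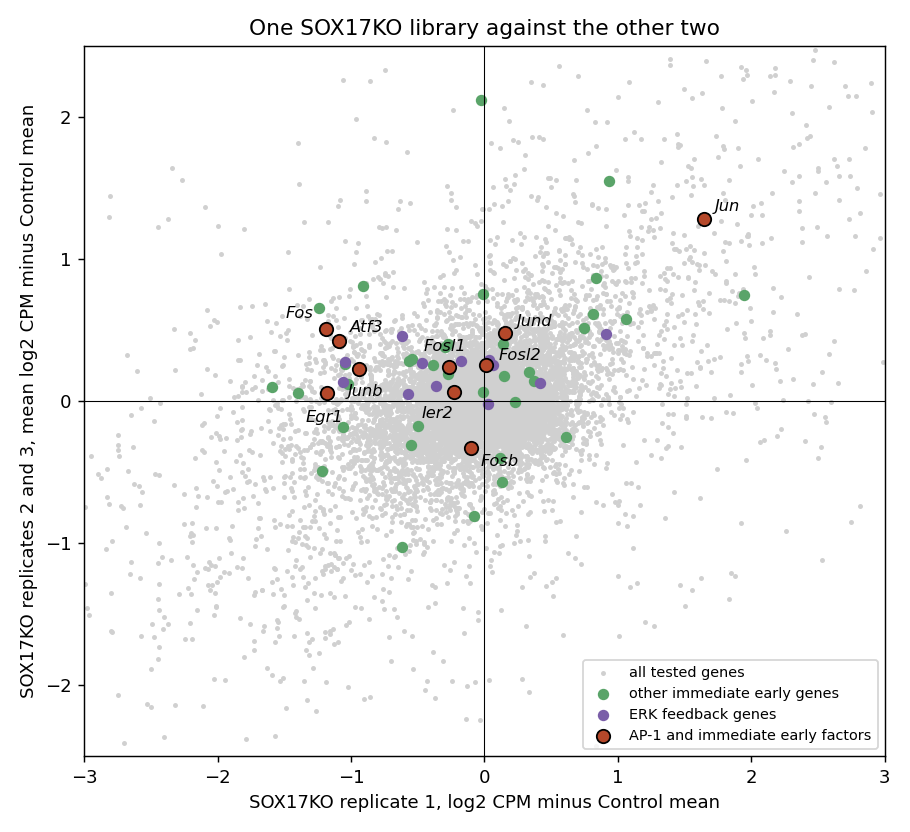
Log2 CPM minus the Control mean in SOX17KO replicate 1 (horizontal) against the mean of SOX17KO replicates 2 and 3 (vertical), for 12137 tested genes in grey, other immediate early genes in green, ERK feedback genes in purple and the 10 genes in red; 206 genes lie outside the axes. Fos, Atf3, Junb and Fosl1 lie in the upper left, low in replicate 1 and high in the other two, and Jun lies in the upper right.

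Per kilobase of transcript, levels ran in the order Jund, Junb, Ier2, Fosl2, Atf3, Jun, Fos, Fosl1, Egr1 and Fosb in SOX17KO. In Control the order was Jund, Junb, Ier2, Fosl2, Atf3, Fos, Fosl1, Jun, Egr1 and Fosb, with means from 106 ± 2.73 CPM per kilobase for Jund to 0.346 ± 0.0627 for Fosb. Jun stood at 16 ± 3.60 CPM per kilobase in SOX17KO and 5.91 ± 0.225 in Control (SD, n = 3 each). Among neighbours in the Control order, Atf3 and Fos overlapped in range and the others did not. The order of Fosl2 and Atf3 in Control depends on the length used: over all annotated exons Atf3 stood above Fosl2, with means of 14 and 13.4 CPM per kilobase. In SOX17KO, Junb overlapped Ier2, and each neighbouring pair from Fosl2 through Atf3, Jun and Fos to Fosl1 overlapped.

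The genes most like each of the 3 genes with the widest spread were sought by the smallest root mean square difference of centred log2 CPM over the 6 libraries. Being the smallest, these differences lie below the median by construction. For Jun they were Erp27, Inpp5j and Plagl1, with differences of 0.0888, 0.112 and 0.125, against a median of 0.750 over all tested genes. Plagl1, a zinc finger gene, was at 63.5, 43.3 and 57 CPM in SOX17KO and 25.1, 24.4 and 21.7 CPM in Control. Erp27 was below 1 CPM throughout, and its fold in the edgeR fit was 3.91, against 2.70 for Jun. For Fos they were 2210019I11Rik, 4931440P22Rik and Pold4 (0.0671, 0.0685 and 0.0768, against a median of 0.604). In every library 2210019I11Rik was at 0.887 CPM or less and 4931440P22Rik at 1.33 CPM or less. For Atf3 they were Adm, Il34 and Iffo1 (0.0520, 0.0754 and 0.0766, against a median of 0.571). Adm, a secreted peptide gene, was at 3.47, 8.69 and 13.6 CPM in SOX17KO and 8.65, 8.08 and 6.96 CPM in Control. Iffo1 was at 1.44 CPM or less in every library.

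Of 25 other leucine zipper partners 21 were tested, and 0 rose and 2 fell with edgeR, 9.52% of those tested beside 6.87% of all genes, with a median log2 fold change of -0.06. At an unadjusted p below 0.05, 1 was higher and 2 lower, and DESeq2 called 0 higher and 2 lower. Mafk, a small Maf protein gene, fell to 57.7, 63.1 and 63.9 CPM in SOX17KO, against 106.6, 107.3 and 106.3 CPM in Control (edgeR adjusted p = 0.0019), and was called without each library in turn. Bach2, a repressor that pairs with small Maf proteins, fell to 0.649, 0.614 and 1.05 CPM in SOX17KO, against 2.39, 2.01 and 1.56 CPM in Control (edgeR adjusted p = 0.0465). It lost the call when SOX17KO replicate 2 or any 1 Control library was left out. Fits without a Control library called at most 1.64% of all genes, against 6.87% with all libraries. The arrangement seen in Fos was shared by 7 partners, Jdp2, Atf4, Atf5, Atf6, Creb5, Maf and Maff, of 21 tested, against 7.98% of all tested genes.

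Of 40 other immediate early genes 36 were tested, and 4 rose and 1 fell, 13.9% of those tested beside 6.87% of all genes. The median log2 fold change was 0.09. At an unadjusted p below 0.05 the counts were 10 higher and 4 lower, where 1281 and 1182 of all 12137 tested genes were. With DESeq2 the counts were 8 and 3, beside 5.75% and 4.99% of the genes it tested. Rhob, a small GTPase gene, rose to 47.6, 76.1 and 70.2 CPM in SOX17KO, against 27, 25.2 and 22.7 CPM in Control (edgeR adjusted p = 0.00705). Zfp36l1, an mRNA decay factor gene, rose to 87.2, 75.9 and 76.5 CPM in SOX17KO, against 54, 50.3 and 45.2 CPM in Control (edgeR adjusted p = 0.0101). Gadd45b, a stress sensor that acts on the p38 and JNK pathways, averaged 17.3 ± 3.41 CPM in SOX17KO and 9.41 ± 0.882 CPM in Control (edgeR adjusted p = 0.0262). Nfkbia, the NF-kappa-B inhibitor gene, fell to 39.9, 24.8 and 36.1 CPM in SOX17KO, against 65.5, 61.4 and 57 CPM in Control (edgeR adjusted p = 0.0303). With 1 Control library left out the 5 calls became 1, 0 and 0 (without replicates 1, 2 and 3), and there were 3 without SOX17KO replicate 3. Those 4 fits called 1.6%, 1.56%, 1.64% and 5.49% of all tested genes, against 6.87% with all libraries. Leaving out SOX17KO replicate 1 gave 13 higher and 4 lower, in a fit that called 11.9% of all genes higher and 10.3% lower. Dusp1, Cdkn1a, Klf2, Klf6 and Socs3 (named after their values were seen) were among the higher. The 4 lower were Klf4, Nfkbiz, Id1 and Nfkbia, at log2 fold changes of -0.31, -0.49, -0.80 and -1.02. Of the 36, 7 shared the arrangement of Fos, against 7.98% of all tested genes: Dusp1, Zfp36, Btg1, Btg2, Plk3, Per1 and Cdkn1a.

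Kinases and factors upstream of AP-1 mostly missed the threshold, with 1 higher and 2 lower of 35 tested genes (8.57%, beside 6.87% of all) and a median log2 fold change of 0.02. An unadjusted p below 0.05 was reached by 4 higher and 3 lower, and DESeq2 gave 4 and 2. Mapk11, which encodes p38 beta, fell to 8.74, 10 and 13.9 CPM in SOX17KO, against 26.2, 23.9 and 23.2 CPM in Control (edgeR adjusted p = 0.0113). Rps6ka5, which encodes the chromatin kinase MSK1, rose to 3.92 ± 0.0364 CPM in SOX17KO, against 2.23 ± 0.165 CPM in Control (edgeR adjusted p = 0.0380). Neither Mapk11 nor Rps6ka5 was called when any 1 Control library was left out, and Rps6ka5 was also not called without SOX17KO replicate 2 or 3. Without a Control library at most 1.64% of all genes were called. The JNK genes Mapk8 and Mapk9, whose kinases activate c-Jun, had adjusted p of 0.833 and 0.581 with edgeR. When SOX17KO replicate 1 was left out, 7 were higher and 3 lower, where 11.9% of all genes were higher and 10.3% lower.

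Of 12 ERK feedback genes 1 rose and 0 fell with edgeR (8.33%, beside 6.87% of all), with a median log2 fold change of 0.11; at an unadjusted p below 0.05 and with DESeq2 the counts were also 1 and 0. Etv5, an ETS factor gene, rose to 39.2, 27.1 and 30.8 CPM in SOX17KO, against 20, 21.4 and 20.9 CPM in Control (edgeR adjusted p = 0.0463). Etv5 lost the call when SOX17KO replicate 3 or any 1 Control library was left out. Without a Control library at most 1.64% of all genes were called. Dusp4, Dusp5, Dusp6, Dusp7, Spry4 and Phlda1 had the arrangement of Fos, 6 of the 12, against 7.98% of all tested genes. The counts became 5 higher and 0 lower without SOX17KO replicate 1, a fit with 11.9% of all genes higher and 10.3% lower.

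Of 32 genes listed as AP-1 targets 22 were tested, and 1 rose and 2 fell, 13.6% of those tested beside 6.87% of all genes. The part of AP-1 in their levels was not tested. The median log2 fold change was -0.19, against 0.01 over all tested genes. It was uneven across libraries. Relative to Control means, on the log2 CPM scale, target medians were -0.55, -0.051 and -0.23 in SOX17KO replicates 1, 2 and 3. At an unadjusted p below 0.05, 2 targets were higher and 8 lower, where 1281 and 1182 of all 12137 tested genes were. DESeq2 called 2 targets higher and 7 lower, beside 5.75% and 4.99% of the genes it tested. Sphk1, the sphingosine kinase gene, rose to 5, 10.7 and 9.15 CPM in SOX17KO, against 2.32, 1.39 and 1.98 CPM in Control (edgeR adjusted p = 0.0140). Il1a, an inflammatory cytokine gene, fell to 3.05, 7.33 and 10.9 CPM in SOX17KO, against 34.5, 29.5 and 25.6 CPM in Control (edgeR adjusted p = 0.0270). Cxcl1, a neutrophil chemokine gene, fell to 6.87, 6.06 and 6.26 CPM in SOX17KO, against 11.5, 10.4 and 11.7 CPM in Control (edgeR adjusted p = 0.0137). None of the 3 was called when any 1 Control library was left out, nor Il1a without SOX17KO replicate 2. Without a Control library at most 1.64% of all genes were called. Without SOX17KO replicate 1 there were 6 higher and 9 lower, again beside 11.9% and 10.3% of all genes. The 10 untested targets, the metalloproteinase genes Mmp3, Mmp9, Mmp10 and Mmp13 among them, were at 0.478 CPM or less in every library.

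Heat shock genes, which rise with handling of cells, were measured beside these lists. Of 13 tested, 0 rose and 2 fell with edgeR (15.4%, beside 6.87% of all), while 1 was higher and 3 lower at an unadjusted p below 0.05, and DESeq2 called 1 higher and 2 lower. Hspb1, which encodes a small chaperone, fell to 9.05, 5.84 and 5.88 CPM in SOX17KO, against 45.4, 39.8 and 45.3 CPM in Control (edgeR adjusted p = 0.000718). Hspa1b fell to 64.5 ± 1.53 CPM in SOX17KO, against 85.4 ± 7.60 CPM in Control (edgeR adjusted p = 0.0394). It was not called without any one library other than SOX17KO replicate 1. Without a Control library at most 1.64% of all genes were called. Relative to Control means, on the log2 CPM scale, the 10 genes had medians of -0.25, 0.25 and 0.31 in SOX17KO replicates 1, 2 and 3, and the heat shock list had 0.13, -0.084 and -0.19. The part of handling in these values was not tested.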

How the data were processed

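RNA from 6 organoid libraries, 3 SOX17KO and 3 Control, was sequenced after poly(A) selection with a directional kit, per the labels' protocols. The authors deposited expected counts per gene; Bowtie, RSEM and mm9 are listed, with no versions, per the submitters' processing notes. Which annotation, strand setting or filter was used was not stated there. Expected counts were rounded and tested with edgeR 4.0.16 in R 4.3.3: filterByExpr (minimum count 10, minimum total 15), TMM factors, a quasi-likelihood F test of genotype, and p-values adjusted by Benjamini-Hochberg over 12137 genes, called below 0.05. CPM use TMM-adjusted library sizes; log2 CPM add a prior count of 2. The SE is the log2 fold change over the square root of F. Levels per kilobase use the median length of coding transcripts of GENCODE M21. The labels do not say whether libraries came from separate cultures, so the tests see just the spread among these libraries, which may be technical. Intervals come from the fit; the labels mention no molecular identifiers. Alternatives were DESeq2 1.42.0, limma-voom (limma 3.58.1), RLE factors, totals without factors, no filter, a filter of 1 CPM in 3 libraries, counts left unrounded, a block for replicate number, and leaving out every library in turn. The rule for named genes took the 10 genes, up to 3 called genes each way of each list by smallest p, and 3 likest genes for each of the 3 widest-varying genes; others were named after their values were seen. The genes and lists were chosen with earlier results of these data known. The fit was tested on simulated counts. Of the listed genes 2 were not analysed here, and 1 called gene of the upstream list is not reported here. Neighbouring genes were ordered by RefSeq on GRCm38.p6. Figures used matplotlib 3.10.9.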

Additional observations from a re-analysis of the deposited data

How the results depend on the processing

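Jun was called higher under every alternative run. Of 140 gene and setting pairs over the 10 genes, 124 kept direction and side of the threshold, 4 kept direction and gained a call, and 12 changed sign, with the cause not tested. Among the 12, Junb without SOX17KO replicate 1 (0.22) also gained a call. The total of called genes was 834, and 1439 with DESeq2, 326 with the replicate block and 192 to 2708 with a library left out. Called among the 10 genes were 1, but 2 with DESeq2 or library totals only, and 1 to 4 with a library left out. Over the 6 pathway lists there were 16 calls, 32 with DESeq2, 5 with the replicate block and 2 to 56 with a library left out. By list, other immediate early genes gave 5, 11 with DESeq2, 2 with the replicate block and 0 to 17 with a library left out. Upstream genes gave 3, 6 with DESeq2, 1 with the block and 0 to 10 with a library left out. AP-1 targets gave 3, 9 with DESeq2, 0 with the block and 0 to 15 with a library left out. Leucine zipper partners gave 2, 1 with limma-voom, 1 with the block and 1 to 5 with a library left out. Heat shock genes gave 2, 1 with library totals only, 1 with the block and 1 to 4 with a library left out. ERK feedback genes gave 1, 0 with library totals only, limma-voom or the block and 0 to 5 with a library left out. Fos had log2 fold changes of -0.10 with limma-voom and -0.035 with the replicate block, and Atf3 of -0.13 with limma-voom and -0.071 with the block. With 1 library left out they ran from -0.15 to 0.50 for Fos, -0.35 to 0.44 for Atf3, -0.012 to 0.24 for Fosl1, -0.26 to 0.22 for Junb, -0.61 to 0.075 for Egr1 and -0.15 to 0.066 for Ier2. Same-numbered libraries did not deviate together (correlations of -0.19, -0.05 and -0.18 for numbers 1, 2 and 3). With 3 libraries per group, of which SOX17KO replicate 1 stood apart, this does not settle whether the numbers pair the samples. Fosb, with about 1 CPM, is limited by depth.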
